A study of Mus musculus with 12 samples.

Results

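Cholesterol synthesis and its control by the transcription factor SREBP2 were followed through 26 genes of 35675 genes with a matched transcript. The members were taken by name, 21 enzymes of the route from acetyl-CoA to cholesterol and 5 genes that sense, regulate or carry sterol, and not by a threshold on measured values. They were chosen with earlier results of these data known, so the counts of calls below describe this list and are not a test of it. All 26 were measured and all 26 passed the filter on low counts.

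The data were polyadenylated RNA-seq libraries from spinal cord cells of mice at postnatal day 10, 12 libraries from 1 mouse each in 3 groups of 4. Controls carried CnpCre and Rosa26-StopFlox-TdTomato. RalA cKO mice carried CnpCre, RalAflox/flox and Rosa26-StopFlox-TdTomato, and RalAB cKO mice carried these and RalBflox/flox. All 3 groups therefore shared the Cre allele and the tdTomato reporter, and large tdTomato-positive cells were sorted by flow cytometry. Cnp-driven Cre is active in oligodendrocytes and other cells of the Cnp lineage, so the deletion is that of a lineage and not of one stage. Rala and Ralb encode the small GTPases RalA and RalB.

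Cholesterol is built from acetyl-CoA through mevalonate, isoprenoid units and squalene, which is cyclized to lanosterol and then trimmed to cholesterol. When sterol in the endoplasmic reticulum is low, SCAP escorts SREBP2, the product of Srebf2, to the Golgi for cleavage, and the released factor raises transcription of nearly all enzymes of the route, whereas INSIG proteins hold the complex back when sterol is high. Oligodendrocytes of the central nervous system make their own cholesterol, a main lipid of myelin, because little of it crosses from the blood.

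Libraries held 10899821 to 15406692 estimated counts, and levels are given in CPM, the counts of a gene relative to the TMM-scaled total of its library. Summed markers of oligodendrocytes (10 genes) reached 91997 to 119238 CPM in control, 108277 to 126804 in RalA cKO and 95562 to 123307 in RalAB cKO, and none of the 10 was at 0. Of these 10, 1 was higher in RalA cKO against control, and 4 were lower in RalAB cKO against control and 3 against RalA cKO. Marker counts are at an adjusted p under 0.05, where 1.07% of all tested genes fell and 1.71% rose in RalA cKO. In RalAB cKO 9.02% of all fell and 9.39% rose against control, and 4.50% fell and 7.03% rose against RalA cKO. Summed markers of microglia (12 genes) were 264 to 580 CPM in control, 181 to 301 in RalA cKO and 1204 to 2206 in RalAB cKO, where 11 of 12 were higher than in control and 12 of 12 higher than in RalA cKO. Summed markers of astrocytes (7 genes) were 355 to 594, 321 to 484 and 275 to 303 CPM in the same order, with 5 of 7 lower in RalAB cKO against control. Summed precursor markers (5 genes) were 2494 to 3694, 2300 to 2790 and 2183 to 2679, with 1 of 5 lower in RalA cKO and 3 of 5 lower in RalAB cKO. Neuron markers (7 genes, 6 tested) summed to at most 87.1 CPM, and 2 of 6 were lower in RalAB cKO against control. The part of these other cells in the changes below was not tested, and in bulk samples fewer cells of a type cannot be told apart from less RNA per cell. Rala was at 35.5 to 59.3 CPM in control, 33.1 to 42.7 in RalA cKO and 32.2 to 42.9 in RalAB cKO, and Ralb at 15.1 to 23.3, 13.4 to 17.5 and 14.03 to 17.2, with no change that passed. The sources used here do not say which exons the floxed alleles lose, so these totals over whole genes do not check the deletion.

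The route was lower in RalAB cKO along most of its length, and a smaller set of its genes was lower in RalA cKO. In RalAB cKO against control, 17 of the 26 genes fell and 1 rose at an adjusted p under 0.05 (edgeR quasi-likelihood test with Benjamini-Hochberg adjustment over 13456 genes, the source of every adjusted p given for a gene), where 9.02% of all tested genes fell and 9.39% rose. The median log2 change of the 26 was -0.60, against -0.01 over all tested genes. In RalA cKO against control, 6 of the 26 fell and 0 rose, where 1.07% of all tested genes fell and 1.71% rose, and the median log2 change was -0.12 against -0.02 over all genes. RalAB cKO compared directly with RalA cKO had 14 of 26 genes lower and 1 higher, against 4.50% and 7.03% of all tested genes, with a median of -0.47 against -0.03. The 2 comparisons with control share the 4 control mice, and the RalAB cKO mice serve in both of theirs, so these counts are not independent of each other.

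By role, the falls in RalAB cKO against control covered 5 of 9 genes of the mevalonate and isoprenoid steps, 3 of 3 from squalene to lanosterol, 7 of 9 after lanosterol and 2 of 5 of SREBP2 control and sterol transport. In RalA cKO they covered 1 of 9, 1 of 3, 2 of 9 and 2 of 5. The 6 genes called lower in RalA cKO were Hmgcs1, Lss, Cyp51, Sc5d, Insig1 and Stard4, and each was also called lower in RalAB cKO. For 18 of the 26 genes the group means of CPM ran downward from control to RalA cKO to RalAB cKO. The share of all tested genes in this order was not taken, and the 18 include genes whose groups overlapped, such as Srebf2. The count in RalA cKO changed when single libraries were left out: it was 1 without control 2, 3 without control 4, 3 without RalA cKO 1 and 0 without RalA cKO 4. It was also 0 when the summed expression of 4 Y-linked genes entered as a covariate, the sources used here giving no sex for the mice.

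**Figure D1:**
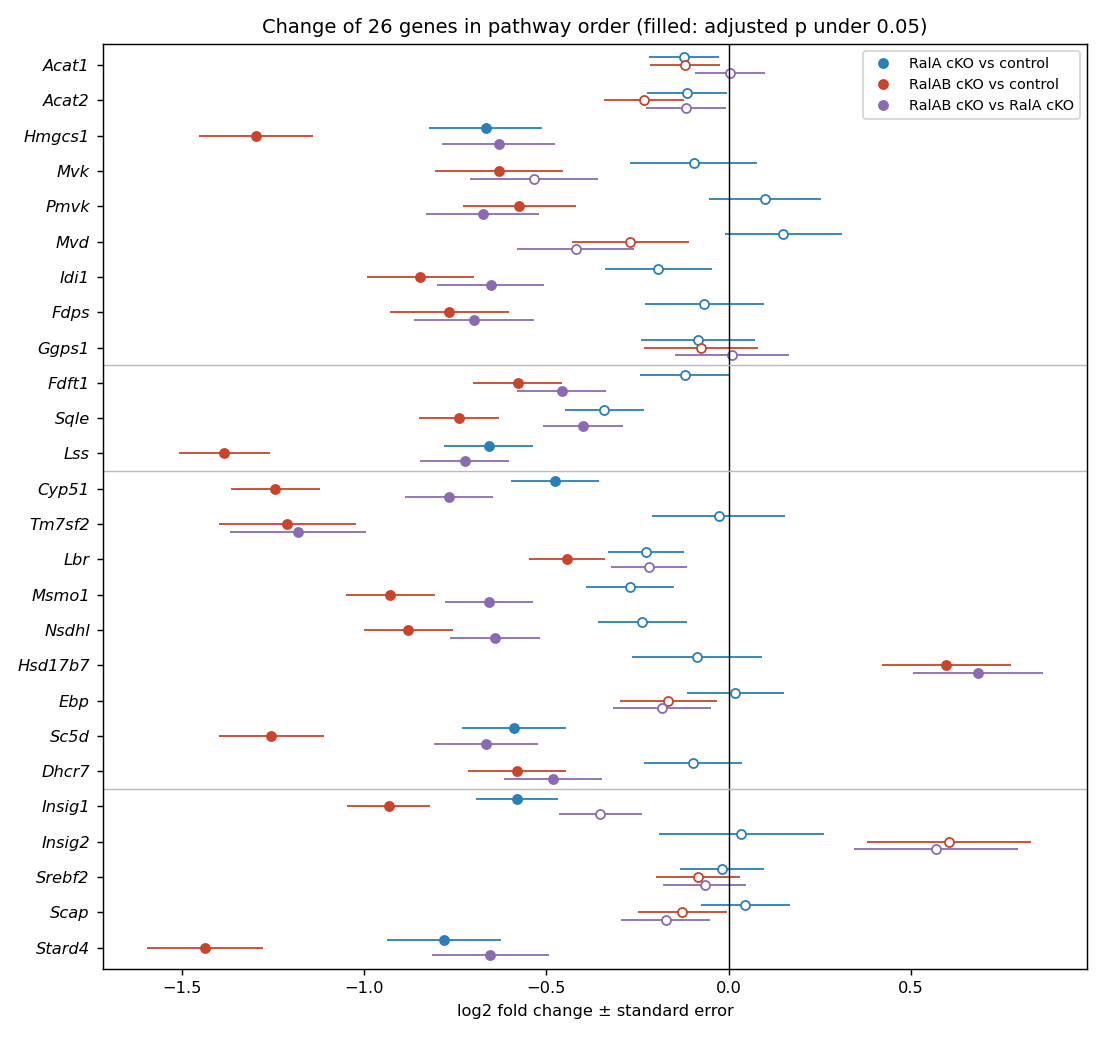
Log2 fold change (x axis) of each of the 26 genes, ordered from the first enzymes at the top to the SREBP2 control genes at the bottom, with bars of 1 standard error and filled points for an adjusted p under 0.05. The RalAB cKO points lie left of 0 for 24 of 26 genes against control, Lss and Stard4 being farthest left and Hsd17b7 and Insig2 on the right, and the RalA cKO points are filled for 6 genes.

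The first steps join acetyl-CoA units into mevalonate. Acat1 and Acat2, the mitochondrial and the cytosolic thiolase that join the first of these units, did not pass in any comparison. Acat1 was at 114 ± 6.06 CPM in the controls, 105 ± 7.75 in RalA cKO mice and 105 ± 9.61 in RalAB cKO mice (mean ± SD, n = 4), and its 95% interval of log2 change in RalAB cKO against control was -0.31 to 0.07. Acat2 was at 523 ± 43.8, 483 ± 44.7 and 446 ± 49.5 (SD, n = 4). The near-identical copy Acat3 was at no more than 0.85 CPM.

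Hmgcs1, which makes hydroxymethylglutaryl-CoA and is a classic target of SREBP2, was the most abundant of the 26 in CPM. It was at 1774, 2560, 1948 and 2688 CPM in control 1 to 4, at 1356, 1649, 1319 and 1328 in RalA cKO 1 to 4, and at 1033, 921, 1008 and 690 in RalAB cKO 1 to 4. The 3 groups did not overlap, and the fall ran from control to RalA cKO to RalAB cKO. On the log2 scale Hmgcs1 fell by 1.30 ± 0.16 (SE) in RalAB cKO against control (2.46-fold, adjusted p = 5.76e-05), by 0.67 ± 0.16 in RalA cKO against control (adjusted p = 0.0304) and by 0.63 ± 0.16 between the mutants (adjusted p = 0.0126). The RalA cKO call ended without control 2 (-0.59), control 4 (-0.56), RalA cKO 1 (-0.65), RalA cKO 3 (-0.63) or RalA cKO 4 (-0.64), and the call between the mutants ended without RalA cKO 2 (-0.55).

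Mvk and Pmvk phosphorylate mevalonate, and Mvd decarboxylates the product. Mvk fell by 0.63 ± 0.18 in RalAB cKO (adjusted p = 0.0213) and Pmvk by 0.57 ± 0.15 (adjusted p = 0.0169). In RalA cKO their log2 changes were -0.10 and 0.10, and Pmvk was lower in RalAB cKO than in RalA cKO by 0.67 ± 0.15 (adjusted p = 0.00801). The RalAB cKO call of Mvk ended without control 1 (-0.48), control 4 (-0.61) or RalAB cKO 2 (-0.64), and that of Pmvk without control 4 (-0.51) or RalAB cKO 4 (-0.54). Mvd did not pass in any comparison. Its level across control, RalA cKO and RalAB cKO was 472 ± 96.7, 524 ± 97.9 and 392 ± 53.9 CPM (SD, n = 4), with a log2 change of -0.27 ± 0.16 in RalAB cKO (adjusted p = 0.265).

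Idi1 isomerizes the isoprenoid unit and Fdps joins such units into farnesyl diphosphate, the branch point to sterols. Idi1 was at 217, 316, 284 and 348 CPM in the controls, 217, 287, 267 and 248.6 in RalA cKO, and 191, 139, 176 and 142 in RalAB cKO. Its RalAB cKO libraries were below all others, while control 1 and control 3 lay inside the RalA cKO range. Idi1 fell by 0.85 ± 0.15 in RalAB cKO (adjusted p = 0.000975), with a log2 change of -0.19 ± 0.15 in RalA cKO (adjusted p = 0.439). Its copy Idi2 was at 0 counts in all 12 libraries.

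Fdps was at 1356, 915, 808 and 1133 CPM in control, 1039, 1194, 809 and 977 in RalA cKO, and 504, 628, 728 and 616 in RalAB cKO. The RalA cKO libraries lay within the control range, and RalAB cKO lay below both. Fdps fell by 0.77 ± 0.16 in RalAB cKO against control (adjusted p = 0.00427) and by 0.70 ± 0.16 against RalA cKO (adjusted p = 0.00922). Ggps1, which makes the geranylgeranyl diphosphate used for prenylation and not for sterols, was at 19.02 ± 3.27, 17.9 ± 2.49 and 18.03 ± 2.37 CPM (SD, n = 4) and did not pass, with a 95% interval of -0.38 to 0.23 in RalAB cKO against control.

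The 3 enzymes from farnesyl diphosphate to lanosterol were all lower in RalAB cKO than in both other groups. Fdft1, squalene synthase, was at 497 ± 54.9 CPM in the control mice, 457 ± 68.1 in the RalA cKO mice and 333 ± 29.0 in the RalAB cKO mice (SD, n = 4). It fell by 0.58 ± 0.12 in RalAB cKO against control (adjusted p = 0.00392) and by 0.46 ± 0.12 against RalA cKO (adjusted p = 0.0206). The latter call ended without RalA cKO 1 (-0.43), RalA cKO 2 (-0.38), RalAB cKO 1 (-0.41) or RalAB cKO 4 (-0.45).

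Sqle, squalene epoxidase, is a rate-limiting enzyme of the late route. It was at 422, 453, 391 and 495 CPM in control, 358, 392, 312 and 327 in RalA cKO, and 266, 279, 282 and 228 in RalAB cKO. RalAB cKO lay below the rest, and only RalA cKO 2 reached the lowest control. Sqle fell by 0.74 ± 0.11 in RalAB cKO (adjusted p = 0.00031) and by 0.40 ± 0.11 between the mutants (adjusted p = 0.0248), and its log2 change in RalA cKO was -0.34 ± 0.11 (adjusted p = 0.0897). In RalA cKO Sqle passed with library totals alone (-0.45, adjusted p = 0.0307), with the DESeq2 test (-0.33, adjusted p = 0.0379) and with limma-voom and quality weights (-0.34, adjusted p = 0.0441). The call between the mutants ended without RalA cKO 1 (-0.38), RalA cKO 2 (-0.34) or RalAB cKO 4 (-0.34).

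Lss, lanosterol synthase, closes the sterol ring system. It had the smallest p of the 26 in both comparisons with control. Its level was 816, 823, 649 and 828 CPM in control, 510, 595, 417 and 452 in RalA cKO, and 281, 324, 310 and 280 in RalAB cKO. No group overlapped another, and control 3 stood below the 3 other controls. Lss fell by 1.38 ± 0.12 in RalAB cKO (2.61-fold, adjusted p = 1.08e-05), by 0.66 ± 0.12 in RalA cKO (1.58-fold, adjusted p = 0.0106) and by 0.72 ± 0.12 between the mutants (adjusted p = 0.000721). The RalA cKO call ended without control 2 (-0.63) or RalA cKO 4 (-0.62).

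Cyp51 removes the first methyl group from lanosterol. It was at 893, 937, 776 and 1013 CPM in control, 677, 754, 580 and 591 in RalA cKO, and 394, 385, 427 and 323 in RalAB cKO. All RalA cKO libraries were below all controls and above all RalAB cKO libraries. Cyp51 fell by 1.24 ± 0.12 in RalAB cKO against control (2.37-fold, adjusted p = 1.52e-05) and by 0.77 ± 0.12 against RalA cKO (adjusted p = 0.000417). In RalA cKO it fell by 0.48 ± 0.12 (adjusted p = 0.0463), and this call ended without control 2 (-0.46), control 4 (-0.41), any of RalA cKO 1 to 4 (-0.49, -0.55, -0.42 and -0.43), RalAB cKO 2 (-0.48) or RalAB cKO 3 (-0.48).

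Tm7sf2 and Lbr encode sterol reductases of the next step, Lbr also being the lamin B receptor of the nuclear envelope. Tm7sf2 was at 172, 129, 103 and 132 CPM in control, 138, 166, 105 and 117 in RalA cKO, and 46.0, 54.4, 77.7 and 54.0 in RalAB cKO. Control and RalA cKO overlapped in full, and RalAB cKO lay below both. Tm7sf2 fell by 1.21 ± 0.19 in RalAB cKO against control (adjusted p = 0.000502) and by 1.18 ± 0.19 against RalA cKO (adjusted p = 0.000506), the largest fall of the 26 between the mutants, with a log2 change of -0.03 ± 0.18 in RalA cKO (95% interval -0.39 to 0.33). Lbr was at 32.1 ± 3.24, 27.5 ± 0.958 and 23.6 ± 0.493 CPM (SD, n = 4) and fell by 0.44 ± 0.10 in RalAB cKO (adjusted p = 0.00745).

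Msmo1, Nsdhl and Hsd17b7 act one after another to strip the remaining methyl groups from the ring. Msmo1, the oxidase, was at 443, 492, 420 and 533 CPM in control, 402, 439, 355 and 368 in RalA cKO, and 267, 239, 284 and 202 in RalAB cKO. Nsdhl, the dehydrogenase, was at 242, 227, 169 and 224, then 191, 205, 156 and 179, then 108, 118, 131 and 111. In both genes RalAB cKO lay below all other libraries and RalA cKO overlapped the controls. Msmo1 fell by 0.93 ± 0.12 in RalAB cKO (adjusted p = 0.000104) and Nsdhl by 0.88 ± 0.12 (adjusted p = 0.00018), and between the mutants they fell by 0.66 ± 0.12 and 0.64 ± 0.12 (adjusted p = 0.00147 and 0.00202). TPM as deposited divides by transcript length and also lacks the TMM scaling of CPM. In TPM Msmo1 was at 371 to 609 in RalA cKO, below all controls at 768 to 912.5. With transcript length offsets its log2 change in RalA cKO against control was -0.60 and passed (adjusted p = 0.043). This separation in TPM was not particular to Msmo1. Nsdhl, Acat2, Fdft1, Sqle and Dhcr7 also lay below all controls in RalA cKO in TPM, while they overlapped in CPM.

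Hsd17b7, the ketoreductase that follows Nsdhl, was the 1 gene of the route that went the other way. It was at 131, 170, 116 and 148 CPM in control, 93.2, 104, 159 and 175 in RalA cKO, and 217, 198, 235 and 204 in RalAB cKO. All RalAB cKO libraries were above all others, and the RalA cKO libraries lay in 2 pairs on either side of the control mean. Hsd17b7 rose by 0.60 ± 0.18 in RalAB cKO against control (1.51-fold, adjusted p = 0.0293) and by 0.68 ± 0.18 against RalA cKO (1.61-fold, adjusted p = 0.0188). The first call ended without control 1 (0.56), control 3 (0.50), control 4 (0.62), RalAB cKO 3 (0.55) or RalAB cKO 4 (0.62), with library totals alone (0.51) and with transcript length offsets (0.47), and the second without RalA cKO 2 (0.58) or RalAB cKO 3 (0.63).

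Ebp, Sc5d and Dhcr7 finish the sterol ring by isomerizing, adding and removing double bonds. Ebp did not pass in any comparison, at 161 ± 23.7, 163 ± 17.9 and 144 ± 22.6 CPM (SD, n = 4). Sc5d, a desaturase, was at 176, 227, 204 and 259 CPM in control, 118, 146, 156 and 156 in RalA cKO, and 96.6, 105, 91.2 and 70.3 in RalAB cKO. The 3 groups did not overlap.

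Sc5d fell by 1.25 ± 0.14 in RalAB cKO (2.39-fold, adjusted p = 3.67e-05), by 0.59 ± 0.14 in RalA cKO (adjusted p = 0.0362) and by 0.66 ± 0.14 between the mutants (adjusted p = 0.00496). Its RalA cKO call ended without control 2 (-0.56), control 3 (-0.63), control 4 (-0.48), RalA cKO 1 (-0.50), RalA cKO 2 (-0.60), RalA cKO 4 (-0.63) or RalAB cKO 3 (-0.59). Dhcr7, a reductase of the last step, was at 553, 466, 410 and 530 CPM in control, 489, 521, 362 and 457 in RalA cKO, and 292, 359, 370 and 289 in RalAB cKO. RalAB cKO lay below the controls but reached past RalA cKO 3. Dhcr7 fell by 0.58 ± 0.13 against control (adjusted p = 0.00697) and by 0.48 ± 0.13 against RalA cKO (adjusted p = 0.0265), with a log2 change of -0.10 ± 0.13 in RalA cKO. The call between the mutants ended without RalA cKO 1 (-0.45), RalA cKO 2 (-0.41), RalA cKO 4 (-0.48), RalAB cKO 1 (-0.44) or RalAB cKO 4 (-0.43).

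Of the genes that control SREBP2, neither the factor nor its escort passed in any comparison. Srebf2 was at 719, 553, 520 and 570 CPM in control, 579, 613, 531 and 609 in RalA cKO, and 484, 587, 589 and 568 in RalAB cKO. The groups overlapped, control 1 being the highest library and RalAB cKO 1 the lowest. The log2 change of Srebf2 was -0.08 ± 0.11 in RalAB cKO (95% interval -0.31 to 0.14, adjusted p = 0.666) and -0.02 ± 0.11 in RalA cKO (-0.24 to 0.21, adjusted p = 0.938). Scap was at 193 ± 32.6, 199 ± 17.3 and 177 ± 19.3 CPM (SD, n = 4) and had a log2 change of -0.13 ± 0.12 in RalAB cKO (95% interval -0.37 to 0.11). These are levels of message, and cleavage of the SREBP2 protein was not measured.

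Insig1, which retains SCAP and is itself a target of SREBP2, was at 178, 215, 229 and 256 CPM in control, 150, 156, 145 and 137 in RalA cKO, and 121, 111, 101 and 126 in RalAB cKO. No group overlapped another. Insig1 fell by 0.93 ± 0.11 in RalAB cKO (1.91-fold, adjusted p = 6.08e-05) and by 0.58 ± 0.11 in RalA cKO (1.495-fold, adjusted p = 0.0142), and the RalA cKO call ended without RalA cKO 4 (-0.55). Between the mutants its log2 change was -0.35 ± 0.11 (adjusted p = 0.0562). This change passed under 5 other settings that kept all libraries (-0.35 to -0.44), and also without control 1 (-0.35) or control 4 (-0.36).

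Insig2, the other retention protein, was low, at 7.34, 10.2, 9.50 and 7.91 CPM in control, 5.90, 6.19, 11.6 and 11.96 in RalA cKO, and 15.4, 12.4, 12.6 and 12.5 in RalAB cKO. All RalAB cKO libraries were above all others, while the log2 change of 0.60 ± 0.22 against control did not pass (adjusted p = 0.0727). Stard4, a carrier of cholesterol between membranes and an SREBP2 target, had the largest fall of the 26 in RalAB cKO. It was at 38.2, 59.0, 45.5 and 52.7 CPM in control, 25.7, 32.0, 31.4 and 24.6 in RalA cKO, and 22.3, 16.6, 18.7 and 14.6 in RalAB cKO, without overlap between groups. Stard4 fell by 1.43 ± 0.16 in RalAB cKO (2.70-fold, adjusted p = 2.85e-05), by 0.78 ± 0.16 in RalA cKO (1.72-fold, adjusted p = 0.0158) and by 0.65 ± 0.16 between the mutants (adjusted p = 0.0119). Its RalA cKO call ended without control 2 (-0.67) or RalA cKO 4 (-0.72).

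**Figure D2:**
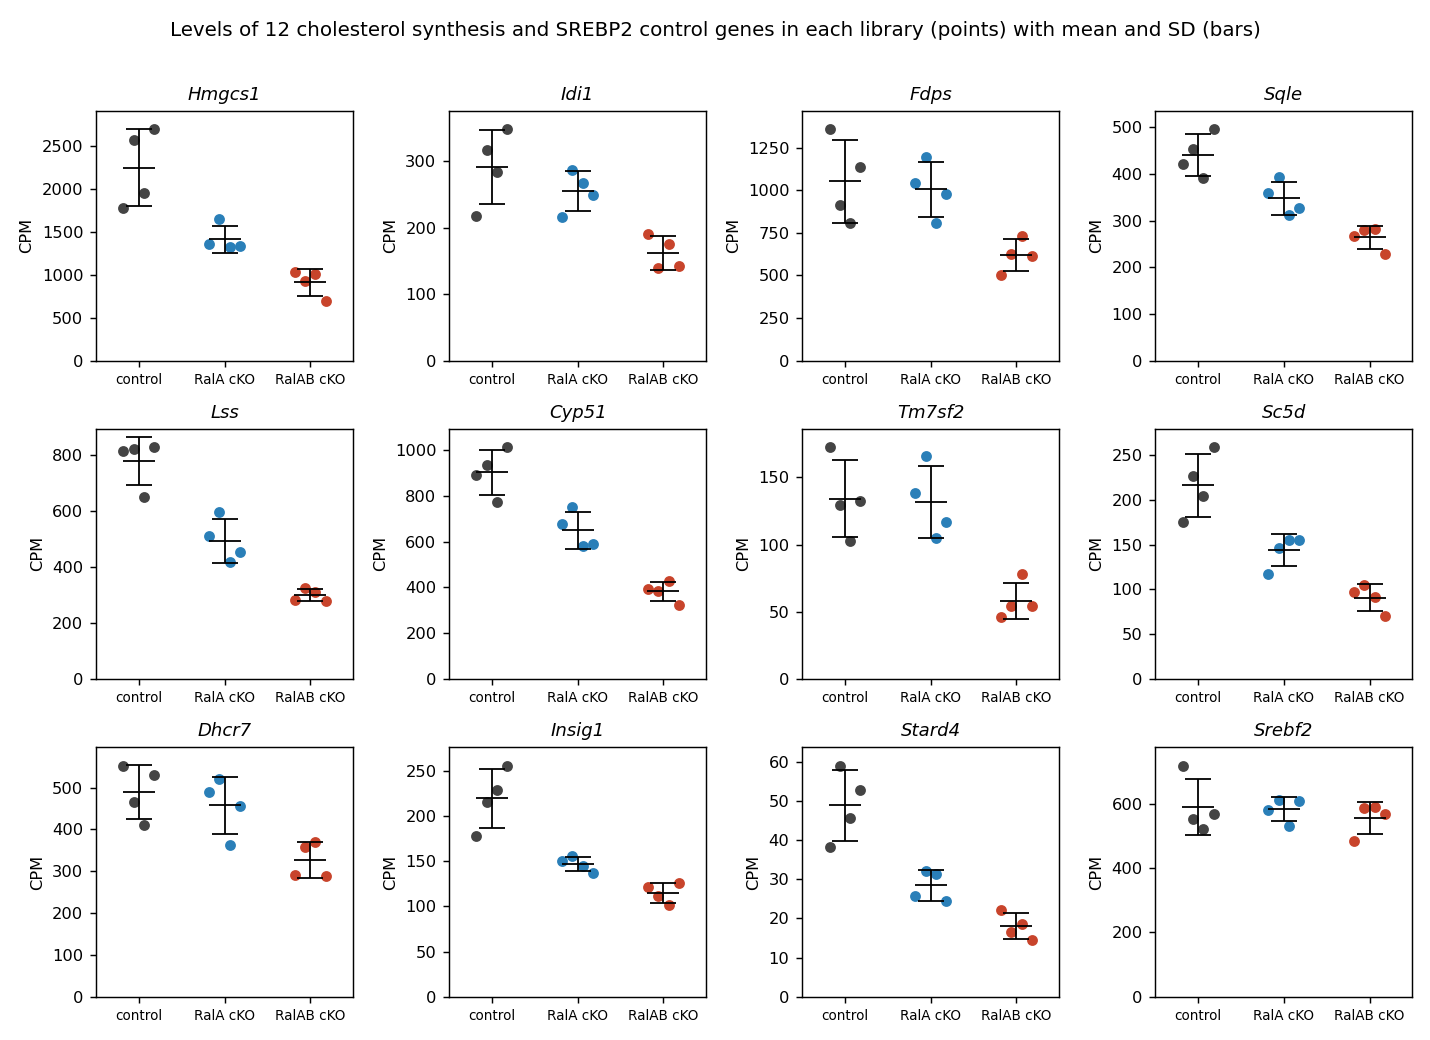
CPM after TMM scaling (y axis, from 0) of 12 of the genes in each library, with 4 points per group and bars for the mean and SD. In Hmgcs1, Lss, Cyp51, Sc5d, Insig1 and Stard4 the 3 groups form descending steps without overlap, in Idi1, Fdps and Tm7sf2 control and RalA cKO overlap above RalAB cKO, in Dhcr7 RalA cKO overlaps both other groups, and in Srebf2 all 3 groups overlap.

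Separation of the libraries gave a similar count to the test. In RalAB cKO against control 16 of the 26 genes had all 4 mutants below all 4 controls and 2 had all mutants above, where 9.34% and 9.88% of all tested genes were so separated. In RalA cKO 6 genes were separated downward and 0 upward, where the shares of all tested genes were 5.77% and 5.64%. Between the mutants 15 were separated downward and 2 upward, against 7.63% and 9.65%.

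The 26 genes together held 1.10%, 1.16%, 1.03% and 1.19% of all counts in control 1 to 4, 0.886%, 0.947%, 0.781% and 0.785% in RalA cKO, and 0.648%, 0.623%, 0.655% and 0.565% in RalAB cKO. In these unscaled shares the groups did not overlap. The means were 1.12 ± 0.0707%, 0.850 ± 0.0809% and 0.623 ± 0.0408% of counts (SD, n = 4), which is 24.1% less than control in RalA cKO and 44.3% less in RalAB cKO. Without Hmgcs1 and Fdps, the 2 genes with the highest counts, the means were 0.774%, 0.616% and 0.472%. By role the fall in RalAB cKO was 46.2% for the mevalonate and isoprenoid steps, 50.9% from squalene to lanosterol, 45.4% after lanosterol and 21.99% for SREBP2 control and transport. In RalA cKO the falls were 23.9%, 30.0%, 23.8% and 15.7% in the same order. These shares were taken of all counts, without the scaling of the test. With library totals alone the median log2 change of all tested genes was -0.14 in RalA cKO and -0.10 in RalAB cKO. With TMM scaling these medians were -0.02 and -0.01. In TMM-scaled CPM the summed levels of control and RalA cKO overlapped, and the falls in both mutants were smaller. The separation of RalA cKO from control thus holds for the unscaled shares only.

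**Figure D3:**
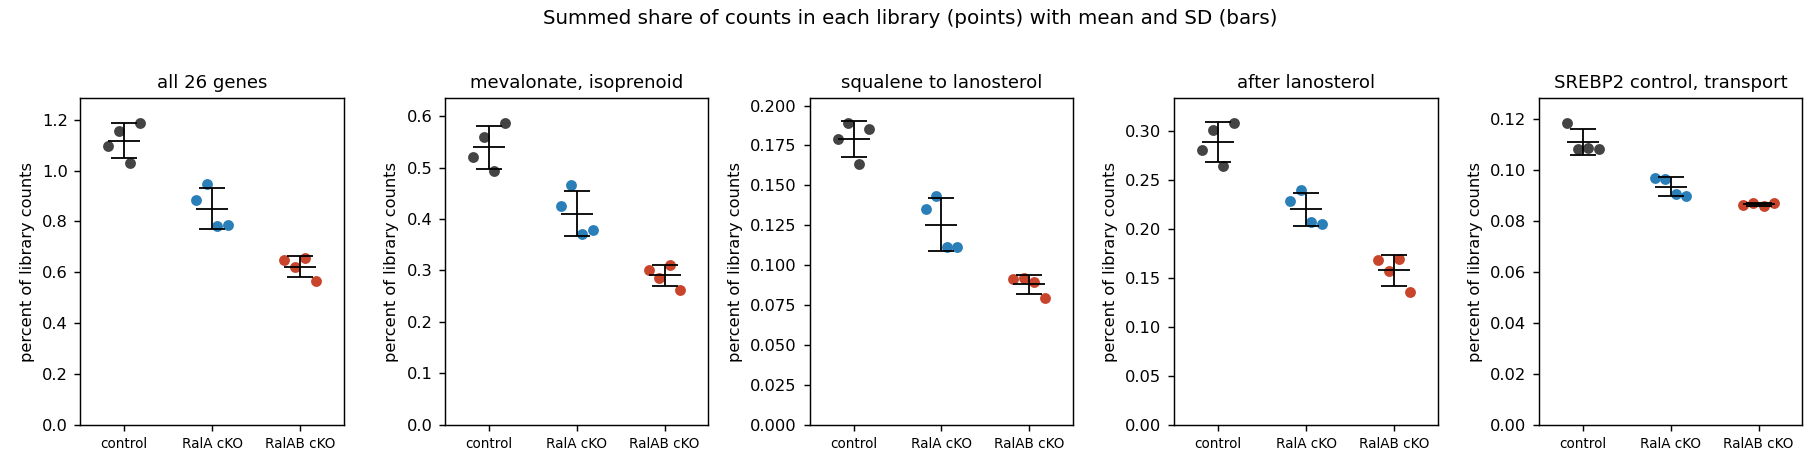
Percent of library counts (y axis, from 0) held by all 26 genes and by each role in the 12 libraries, with 4 points per group and bars for the mean and SD. The sum of all 26 lies at 1.03% to 1.19% in control, 0.781% to 0.947% in RalA cKO and 0.565% to 0.655% in RalAB cKO.

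Per unit of transcript length, in TPM as deposited, Fdps was the highest of the 26 in control (1673 ± 283, SD, n = 4), followed by Hmgcs1 (1183 ± 243), Msmo1 (836 ± 61.4), Dhcr7 (671 ± 81.8) and Cyp51 (529 ± 46.1). The ranges of 1 SD overlapped for Fdps and Hmgcs1, and again for Cyp51 and the next gene, Mvd (507 ± 71.2), but not between the neighbours from Hmgcs1 to Cyp51. Stard4 (17.8 ± 2.33), Lbr (16.7 ± 3.14) and Insig2 (10.0 ± 4.07) were the lowest, and Ggps1 (18.5 ± 3.92) stood within the spread of Stard4 and Lbr. Tm7sf2 at 204 ± 31.0 TPM was the more abundant message of the reductase pair. In RalAB cKO Tm7sf2 was at 77.8 ± 14.9 and Lbr at 12.1 ± 2.13 TPM.

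Mice of a group varied together over many of the 26 genes. Among the controls, control 3 had the lowest value in 16 genes, and control 1 had the highest value in 11 and the lowest in 9. Among the RalA cKO mice, number 2 had the highest value in 19 genes and number 3 the lowest in 18. Among the RalAB cKO mice, number 3 was highest in 16 and number 1 lowest in 11.

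Some libraries also deviated from their group along the base composition of the transcripts. Over 6890 well expressed genes, the deviation of a library from its group mean had a Spearman correlation with GC content of 0.79 in control 1, -0.62 in control 2, -0.58 in RalAB cKO 1, -0.51 in RalA cKO 3 and 0.48 in RalAB cKO 4, but only 0.01 in RalA cKO 2, 0.11 in RalAB cKO 3 and -0.22 in control 3, given as a description since genes of 1 library share its preparation and depth. Over all tested genes, the median log2 change in RalA cKO ran from 0.15 in the 20% of genes with the shortest transcripts to -0.17 in the 20% with the longest, and in RalAB cKO from -0.10 in the 20% with the lowest GC content to 0.13 in the 20% with the highest. The 6 genes that fell in RalA cKO had a median GC content of 45.5% (43.4% to 50.8%) and a median length of 3526 bases, against 49.96% and 2400 bases in the 20 that did not pass.

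When a smooth trend of each library on GC content and length was taken out, 4 of 26 genes fell in RalA cKO, Hmgcs1 (-0.56, adjusted p = 0.0249), Insig1 (-0.48, adjusted p = 0.0117), Sc5d (-0.51, adjusted p = 0.0214) and Stard4 (-0.58, adjusted p = 0.00617). Lss (-0.47, adjusted p = 0.0605) and Cyp51 (-0.30, adjusted p = 0.184) no longer passed. In RalAB cKO 18 fell and 2 rose, the additional ones being Mvd (-0.38, adjusted p = 0.0251) and Insig2 (0.70, adjusted p = 0.016), and between the mutants 17 fell and 1 rose.

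**Figure D4:**
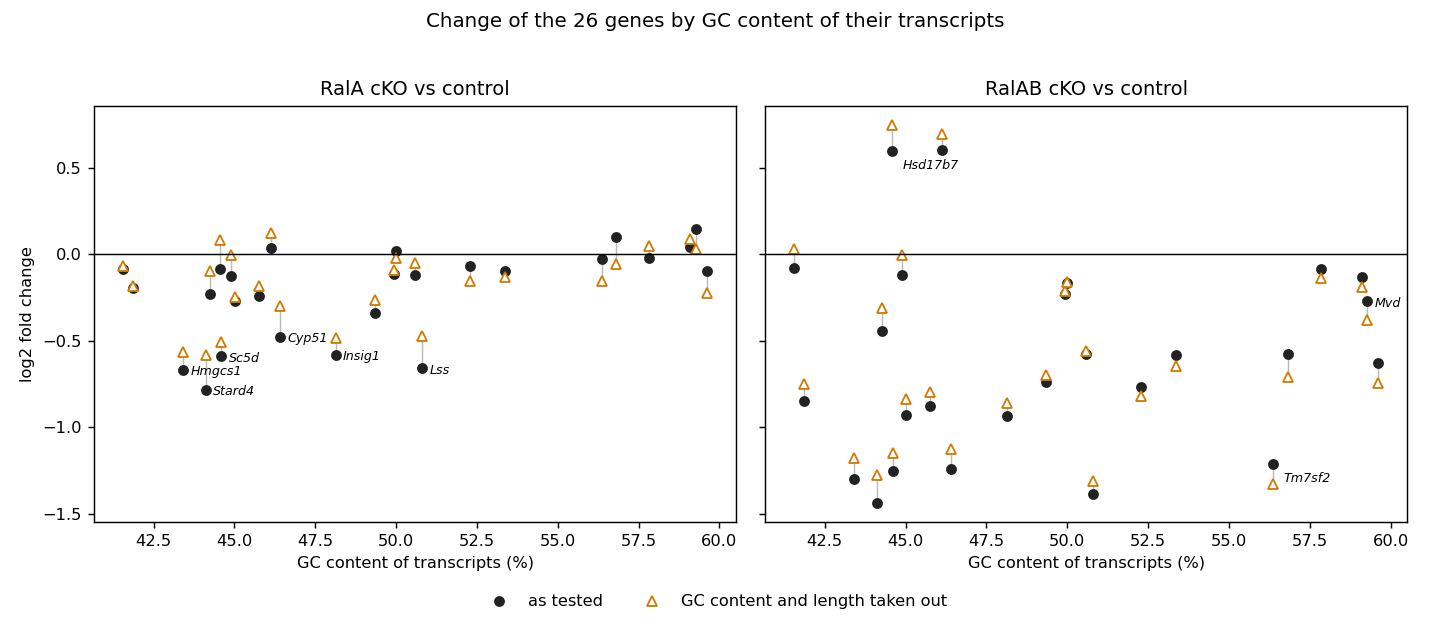
Log2 fold change (y axis) of the 26 genes against the GC content of their transcripts in percent (x axis), as tested (filled circles) and after the trend on GC content and length was taken out (open triangles), with lines joining both values of a gene. In RalA cKO the 6 genes that fell lie between 43.4% and 50.8% GC and their triangles lie above their circles, whereas in RalAB cKO falls are found from 41.9% to 59.6% GC.

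The deposited values were per transcript, so the 26 genes could also be read as 142 transcripts, of which 92 passed the filter. In RalAB cKO against control 19 of the 92 fell, where 0.778% of 31497 tested transcripts fell and 0.902% rose, and the most abundant transcript fell in 14 of the 26 genes. In RalA cKO 1 of 92 fell, where 0.0508% of all fell and 0.0667% rose, and between the mutants 5 of 92, where 0.562% fell and 0.962% rose, the most abundant one in 0 and 4 genes. None of the 92 rose. Leaving out 1 library gave 11 to 22 falls in RalAB cKO, 0 to 1 in RalA cKO and 2 to 8 between the mutants. The counts under 13 in RalAB cKO came without control 2, control 4, RalAB cKO 2, RalAB cKO 3 or RalAB cKO 4 (12, 12, 11, 12 and 11).

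In 12 of the 26 genes a single transcript held over 90% of counts, as in Insig1. Lss was split between the coding transcript Lss-201 (55.3% of its counts) and the retained-intron transcript Lss-204 (39.9%). Both fell in RalAB cKO, by 1.35 ± 0.17 (adjusted p = 0.00338) and 1.49 ± 0.13 (adjusted p = 0.00134). Lss-204 was the 1 transcript called in RalA cKO, with a fall of 0.82 ± 0.12 (adjusted p = 0.0455), beside -0.60 ± 0.17 for Lss-201 (adjusted p = 0.234). This call ended without any 1 of 11 libraries, all but RalA cKO 2, at log2 changes of -0.68 to -0.88. Sc5d was split between Sc5d-202 (66.7%), which fell by 1.47 ± 0.17 in RalAB cKO (adjusted p = 0.00247), and the longer Sc5d-201 (32.1%), at -0.82 ± 0.20 (adjusted p = 0.0662). In Dhcr7 the main transcript Dhcr7-202 (79.5%) was at -0.48 ± 0.13 (adjusted p = 0.117) and Dhcr7-211 (15.7%) fell by 1.14 ± 0.22 (adjusted p = 0.028), a call that ended without any 1 control or RalAB cKO library (-1.06 to -1.22). Whether transcripts of a gene differed in their change was not tested, and estimated counts divide reads shared by transcripts.

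Promoters are shown for the 4 genes of smallest p among those with a RefSeq promoter, and for 2 genes that did not fall. Lss (ENSMUSG00000033105, chr10:76531588-76557138, plus strand), Cyp51 (ENSMUSG00000001467, chr5:4081145-4104746, minus strand), Sc5d (ENSMUSG00000032018, chr9:42251595-42264256, minus strand) and Hmgcs1 (ENSMUSG00000093930, chr13:119690379-119708260, plus strand) fell. Hsd17b7 (ENSMUSG00000026675, chr1:169949535-169969241, minus strand) rose, and Srebf2 (ENSMUSG00000022463, chr15:82147181-82205379, plus strand) did not pass. These gene positions are those of GENCODE vM21.

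Each sequence gives the 250 bases before the RefSeq start of the gene in GRCm38.p6, 5′ to 3′ on the strand of the gene. They span chr10:76531355-76531604 (Lss), chr5:4104698-4104947 (Cyp51), chr9:42264301-42264550 (Sc5d), chr13:119690101-119690350 (Hmgcs1), chr1:169969206-169969455 (Hsd17b7) and chr15:82147019-82147268 (Srebf2). Capitals mark matches on either strand to the SREBP core TCACNCCAC, the E-box CACGTG or the NF-Y box CCAAT, NF-Y being a factor that acts beside SREBP2 at sterol genes.
Lss: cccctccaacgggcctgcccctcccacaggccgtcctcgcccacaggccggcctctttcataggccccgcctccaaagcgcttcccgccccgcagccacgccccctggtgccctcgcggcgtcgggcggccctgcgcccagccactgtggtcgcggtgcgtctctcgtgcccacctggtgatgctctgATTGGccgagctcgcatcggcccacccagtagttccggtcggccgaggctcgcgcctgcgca
Cyp51: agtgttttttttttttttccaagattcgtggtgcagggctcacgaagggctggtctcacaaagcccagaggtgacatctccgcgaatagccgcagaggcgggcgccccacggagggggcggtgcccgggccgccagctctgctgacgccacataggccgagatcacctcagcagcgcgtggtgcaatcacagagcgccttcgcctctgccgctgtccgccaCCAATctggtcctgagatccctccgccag
Sc5d: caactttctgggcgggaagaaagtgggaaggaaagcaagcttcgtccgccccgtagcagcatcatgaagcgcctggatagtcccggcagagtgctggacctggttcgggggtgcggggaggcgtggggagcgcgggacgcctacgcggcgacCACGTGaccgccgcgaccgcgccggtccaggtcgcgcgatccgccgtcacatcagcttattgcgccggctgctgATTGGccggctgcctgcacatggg
Hmgcs1: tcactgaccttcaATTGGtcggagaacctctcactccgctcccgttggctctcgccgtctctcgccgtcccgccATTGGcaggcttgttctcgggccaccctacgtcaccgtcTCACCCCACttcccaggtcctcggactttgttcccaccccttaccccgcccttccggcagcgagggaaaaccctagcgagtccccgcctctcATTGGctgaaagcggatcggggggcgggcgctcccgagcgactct
Hsd17b7: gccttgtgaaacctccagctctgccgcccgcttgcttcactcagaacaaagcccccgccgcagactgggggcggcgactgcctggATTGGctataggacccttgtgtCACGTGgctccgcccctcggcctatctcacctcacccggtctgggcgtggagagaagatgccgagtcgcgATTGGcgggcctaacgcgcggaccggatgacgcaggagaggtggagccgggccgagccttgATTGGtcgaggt
Srebf2: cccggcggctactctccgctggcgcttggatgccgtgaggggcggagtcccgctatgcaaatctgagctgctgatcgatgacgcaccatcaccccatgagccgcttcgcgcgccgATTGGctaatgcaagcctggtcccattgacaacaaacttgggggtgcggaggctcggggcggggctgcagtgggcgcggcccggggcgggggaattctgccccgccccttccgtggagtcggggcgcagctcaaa

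Of the 26 genes, 21 were in the RefSeq promoter table, and Acat1, Fdps, Fdft1, Sqle and Stard4 were not. Motifs were sought on both strands from 250 bases before to 50 after the start, in the 21 and in all 32851 promoters of the table. A member counted if any of its promoters matched, while the shares are of single promoters. Dhcr7, Insig2 and Scap had more than 1 promoter, so the counts and shares are not fully alike. The NF-Y box was in 19 of 21 members, the exceptions being Acat2 and Scap, against 37.4% of all promoters. It was in 13 of 13 members that fell in RalAB cKO. It was also in Ebp, Ggps1, Hsd17b7, Insig2, Mvd and Srebf2, which are all those that did not fall other than Acat2 and Scap. The box thus did not set apart the members that fell. The Sp1 box GGGCGG was in 19 of 21, against 35.7%. The SREBP core was in 1 of 21, Hmgcs1, where it starts 137 bases before the start, against 1.24%. With 1 mismatch allowed it was in 10 of 21, against 24.2% of all promoters. The E-box was in Dhcr7, Hsd17b7, Insig1, Sc5d and Scap, 5 of 21, against 7.15%. None of these motifs contains another, a match is a run of letters and not a measured binding site, and the absence of a match concerns this window only.

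The surrounding pathway was read from 31 further genes, 29 of them tested. In RalA cKO 2 of 29 fell and 0 rose, in RalAB cKO 3 fell and 2 rose, and between the mutants 2 fell and 2 rose, with median log2 changes of -0.08, -0.13 and -0.11. The shares of all tested genes in the same 3 comparisons were 1.07%, 9.02% and 4.50% lower and 1.71%, 9.39% and 7.03% higher. The pooled counts in RalAB cKO thus lay near the shares over all genes, but the 31 genes are of unlike kinds. Of 6 tested further sterol enzymes and redox partners, 2 fell in RalA cKO, 2 in RalAB cKO and 1 between the mutants, and 0 rose. Their median log2 changes were -0.28, -0.35 and -0.29. Of 4 tested genes of uptake and endosomal export, 1 fell and 1 rose in RalAB cKO against control. Cyb5b, a cytochrome b5 that passes electrons to oxidases, was at 154, 175, 155 and 180 CPM in control, 130, 130, 115 and 119 in RalA cKO, and 130, 123, 118 and 114 in RalAB cKO. Both mutants lay below all controls and overlapped each other. Cyb5b fell by 0.43 ± 0.09 in RalA cKO (adjusted p = 0.0239) and by 0.45 ± 0.09 in RalAB cKO (adjusted p = 0.00314), with a log2 change of -0.03 between the mutants. The RalA cKO call ended without control 2 (-0.39), control 4 (-0.37), RalA cKO 2 (-0.45), RalA cKO 3 (-0.39) or RalA cKO 4 (-0.41), with the replicate block (-0.43), with the Y-linked covariate (-0.36) and with GC content and length taken out (-0.22).

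Of 9 genes listed for SREBP processing and degradation, among them a related SREBP factor, 1 rose in RalAB cKO, a share near the 9.39% of all tested genes. This was Rnf145, a sterol-responsive ubiquitin ligase that acts on SCAP. It was at 102 to 118 CPM in control, 100 to 119 in RalA cKO and 146 to 164 in RalAB cKO, higher by 0.50 ± 0.09 against control (adjusted p = 0.00149) and by 0.44 ± 0.09 against RalA cKO (adjusted p = 0.0044). Mylip, a ubiquitin ligase induced by liver X receptors that act when sterol is high, rose by 0.80 ± 0.26 in RalAB cKO (adjusted p = 0.042). It was higher than in RalA cKO by 1.84 ± 0.28 (adjusted p = 0.000262). Mylip was low, at 2.7 to 5.8 CPM in control, 1.8 to 2.7 in RalA cKO and 6.3 to 10.6 in RalAB cKO, with control 1 inside the RalA cKO range. Its log2 change in RalA cKO was -1.04 ± 0.28 (adjusted p = 0.0552), which passed without control 1 (-1.24) or RalAB cKO 1 (-1.03) and under 6 other settings (-0.95 to -1.29). The RalAB cKO call of Mylip against control ended without control 1 (0.61), control 2 (0.87), control 4 (0.85), RalA cKO 2 (0.80), RalA cKO 4 (0.80), RalAB cKO 3 (0.65) or RalAB cKO 4 (0.74). It also ended with library totals alone (0.69), with only the 2 groups compared (0.80), with transcript length offsets (0.54) and with the Y-linked covariate (0.79). Erg28, a scaffold of the enzymes that remove the ring methyl groups, was lower in RalAB cKO than in RalA cKO by 0.37 ± 0.11 (adjusted p = 0.0305), a call that ended without RalA cKO 1 (-0.38), RalA cKO 2 (-0.32), RalA cKO 4 (-0.33), RalAB cKO 1 (-0.34), RalAB cKO 2 (-0.38) or RalAB cKO 4 (-0.38), with the replicate block (-0.37) or with the Y-linked covariate (-0.36). Of 10 genes that draw isoprenoids away from sterols, 0 passed in any of the 3 comparisons.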

How the data were processed

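Trimmomatic 0.36 and kallisto 0.44 were used per the submitters' processing notes, which give no role or order. Per the file headers the deposited files hold estimated counts and TPM per transcript. Per the labels, RNA was extracted with Trizol, libraries were stranded mRNA libraries and each came from 1 mouse. Transcripts were matched to GENCODE vM21 (121104 of 121843; the rest held 0.219% to 0.277% of counts), summed per gene and rounded. The edgeR 4.0.16 filter (minimum count 10, total 15) kept 13456 genes. TMM scaling and robust quasi-likelihood tests over all 12 libraries followed, in R 4.3.3, with Benjamini-Hochberg adjustment at 0.05. The procedure was tested on simulated data. DESeq2 1.42.0 and limma 3.58.1 served as alternatives. Library pairs of a group differed beyond sampling noise (chi-square per degree of freedom 9.09 to 39.5), so all 12 were counted. The members and lists were chosen with earlier results of these data known. Every member was to be reported, with full values for the 6 called members of smallest p in a comparison and for Hmgcs1, Sqle, Lss, Dhcr7, Insig1 and Srebf2. Promoters were those of the 4 members with the smallest p in the table, and those of Hsd17b7 and Srebf2 were added after their values were seen. Some single genes of the pathway are not reported here.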

Additional observations from a re-analysis of the deposited data

Results flagged for a closer look

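In 6 of 93 groups of 4 values, 1 library stood apart from the other 3 by a gap above Dixon's critical value for 4 values, which chance gives in about 1 of 20 groups. For Lss in control, control 3 at 649 CPM lay below the other controls at 816 to 828, a gap of 0.937 of the range. For Lbr in control, control 1 at 27.3 lay below the others at 33.2 to 34.3, a gap of 0.845. The summed share of the 5 SREBP2 control and transport genes was 0.119% in control 1 against 0.108% to 0.109% in the others, a gap of 0.929. Hmgcs1 in RalA cKO 2 was at 1649 CPM against 1319 to 1356, a gap of 0.888. Ggps1 in RalA cKO 3 was at 21.7 against 16.3 to 16.98, a gap of 0.872. Insig2 in RalAB cKO 1 was at 15.4 against 12.4 to 12.6, a gap of 0.929.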

How the results depend on the processing

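Under 26 other settings, 14 of the 18 calls in RalAB cKO against control held in every setting, the exceptions being Mvk, Pmvk, Lbr and Hsd17b7. Between the mutants 9 of 15 calls held in every setting, and in RalA cKO 0 of 6. The cause of these losses was not tested. The 4 mice per group and depths of 10899821 to 15406692 counts limit the size of change that could be detected, and a gene that did not pass is not shown to be unchanged. The numbers of the mice are names, and same-numbered mice did not deviate together (correlations of -0.198 to 0.176). With mouse number as a replicate block 3 members fell in RalA cKO, the calls of Hmgcs1, Cyp51 and Sc5d being lost, and 232 genes were called over all genes, against 374 without it.

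Over all genes, RalA cKO had 1083 calls with the DESeq2 test, 1736 with limma-voom and quality weights, 93 with the Y-linked covariate, 752 with GC content and length taken out (chosen after seeing the data), and 85 to 1693 when libraries were left out. RalAB cKO had 4061 with quality weights and 1605 to 3962 when libraries were left out, against 2478, and the mutants differed in 2560 genes with quality weights, against 1551. Members lower in RalA cKO were 0 with the Y-linked covariate and 0 to 6 when a library was left out. Members higher in RalAB cKO were 0 with library totals alone or transcript length offsets, 2 with the DESeq2 test, with only the 2 groups compared or with GC content and length taken out, and 0 to 1 when libraries were left out. Between the mutants they were 2 with quality weights and 0 to 1 when libraries were left out. Without control 1 and RalAB cKO 1 together, chosen after seeing the data, 6, 15 and 14 members were lower in the 3 comparisons. Without Hmgcs1 and Fdps the summed shares were 0.774%, 0.616% and 0.472%. Member transcripts called lower were 0 to 1, 11 to 22 and 2 to 8 when a library was left out. SREBP core matches were 10 with 1 mismatch allowed. Library totals alone moved the median of all genes to -0.14 in RalA cKO and -0.10 in RalAB cKO. Transcript length offsets ended the calls of Lbr (-0.33), Hsd17b7 (0.47) and Mylip (0.54) in RalAB cKO, of Stard4 in RalA cKO (-0.75) and of Fdft1 (-0.38), Dhcr7 (-0.60) and Stard4 (-0.48) between the mutants, and gave a call of Msmo1 in RalA cKO (-0.60). Apart from left-out libraries, some genes that did not pass did so in other settings. In RalA cKO these were also Sqle with library totals alone, the DESeq2 test or quality weights, and Mylip. In RalAB cKO these were Acat2 (-0.32) and Erg28 (-0.35) with library totals alone, Mvd with GC content and length taken out (-0.38), and Insig2 with the DESeq2 test (0.62), with only the 2 groups compared (0.60) or with GC content and length taken out (0.70). Between the mutants, Mvk (-0.51 to -0.57 in 4 settings), Mvd (-0.41 and -0.44 in 2), Insig1 (-0.35 to -0.44 in 5) and Insig2 (0.70 in 1) passed.

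Values that changed sign were all of genes that had not passed and lay near 0. In RalA cKO, library totals alone gave Pmvk -0.010, Ebp -0.096, Insig2 -0.091, Scap -0.065, Rnf145 -0.051 and Erg28 -0.0027. Quality weights gave Mvk 0.041, Fdps 0.040, Tm7sf2 0.11, Insig2 -0.15 and Srebf2 0.058, and limma-voom alone gave Insig2 -0.012. Transcript length offsets gave Acat1 0.040, Insig2 -0.31 and Scap -0.24. The Y-linked covariate gave Ggps1 0.079, Ebp -0.029, Insig2 -0.00055 and Scap -0.058. GC content and length taken out gave Pmvk -0.053, Hsd17b7 0.081, Ebp -0.019 and Srebf2 0.048. With libraries left out, Mvk ranged from -0.22 to 0.061, Fdps from -0.19 to 0.088, Tm7sf2 from -0.16 to 0.13, Hsd17b7 from -0.25 to 0.051 and Ebp from -0.074 to 0.12. Dhcr7 ranged from -0.19 to 0.00016, Insig2 from -0.14 to 0.19, Srebf2 from -0.086 to 0.10 and Scap from -0.026 to 0.18 likewise. In RalAB cKO against control, Ggps1 was 0.033 with GC content and length taken out and Srebf2 0.0046 with quality weights. With libraries left out, Srebf2 ranged from -0.16 to 0.096 and Scap from -0.20 to 0.073. Between the mutants, Acat1 was -0.00088 with no count filter, -0.011 with quality weights, -0.00074 with the replicate block, -0.044 with length offsets and -0.0043 with GC content and length taken out. Ggps1 was -0.30 with length offsets and -0.13 with the Y-linked covariate, and Cyb5b 0.0023 with library totals alone. With libraries left out, Acat1 ranged from -0.045 to 0.058, Ggps1 from -0.071 to 0.11 and Cyb5b from -0.070 to 0.0013.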
